A study of Mus musculus with 19 samples.

Results

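The 9 Padi6-mutant single-embryo libraries of a mouse blastocyst series were divided by how many of the 14173 listed genes had a value of 0. Over 400 genes at 0 were found in 4 libraries (m6, m8, m9 and m10), and 400 or fewer in the other 5 (m2, m3, m4, m5 and m7). Together they are 9 of the 19 libraries, and the remaining 10 (w1 to w10) are Control. Each library holds the polyadenylated RNA of 1 blastocyst. The Padi6-mutant blastocysts developed from oocytes with the P620A change in Padi6, per the series design, and the labels give the other 10 as Control with no further allele. The labels state neither strain, age, sex, litter nor the paternal genotype. They describe an outgrowth culture and do not say whether these embryos went through it. All embryos were taken as blastocysts, so embryos that stopped earlier are not represented. P-values below take embryos as independent samples. Values are log2(scaled count + 1), where the authors scaled each library to a common upper quartile. In lists of values, the 5 are given in the order m2, m3, m4, m5 and m7, and the 4 in the order m6, m8, m9 and m10.

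The division was made from zeros in the same values that are described here. Differences between the 4 and the 5 are therefore given without a test, and they support no claim on the division itself. At the threshold, the library just inside the group of 5 had 203 genes at 0 (m4), and the library just inside the group of 4 had 411 (m9).

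A blastocyst has an outer trophectoderm, which forms the placenta and pumps fluid into the cavity, and an inner cell mass. The inner cell mass parts into epiblast, which keeps pluripotency factors such as Nanog, Sox2 and Esrrb, and primitive endoderm, which turns on Pdgfra, Gata4 and Sox17 under FGF and ERK signalling and makes the first basement membrane. PADI6 is laid down in the growing oocyte, where it helps form the cytoplasmic lattices and the subcortical maternal complex on which early cleavage depends. A blastocyst library mixes all its cells, so fewer cells of a type and less RNA per cell cannot be told apart.

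Genes at 0 numbered 596, 462, 411 and 551 in the 4 libraries and 169, 164, 203, 113 and 143 in the 5. Control libraries ranged from 30 to 247, with a high of 247 in w9 and 238 in w4, so no Control library reached the group of 4. The 4 held both the shallowest and the deepest of the Padi6-mutant libraries whose depth could be recovered, which leaves out m7 of the 5. In units of M (1000000 counts), the depths recovered from the spacing of low values were 25.4, 12.1, 30.2 and 22.3 in the 4, and 18.5, 15.0, 15.8 and 25.7 in m2, m3, m4 and m5. In m7 the low values ran without gaps, so no step could be recovered. It had 40.8 M scaled counts, and values without gaps mean about as many original counts or more, above the 30.2 M of m9. After all libraries were thinned at random to 12.1 M, the 4 had 692, 462, 511 and 638 genes at 0, and the 5 had between 160 and 233. Control libraries then had 112 to 380, with 380 in w9 and 379 in w4, so they came closer to the group of 4. The labels state a mean depth of 4.2 M reads, and the difference from these counts was not resolved.

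**Figure D1:**
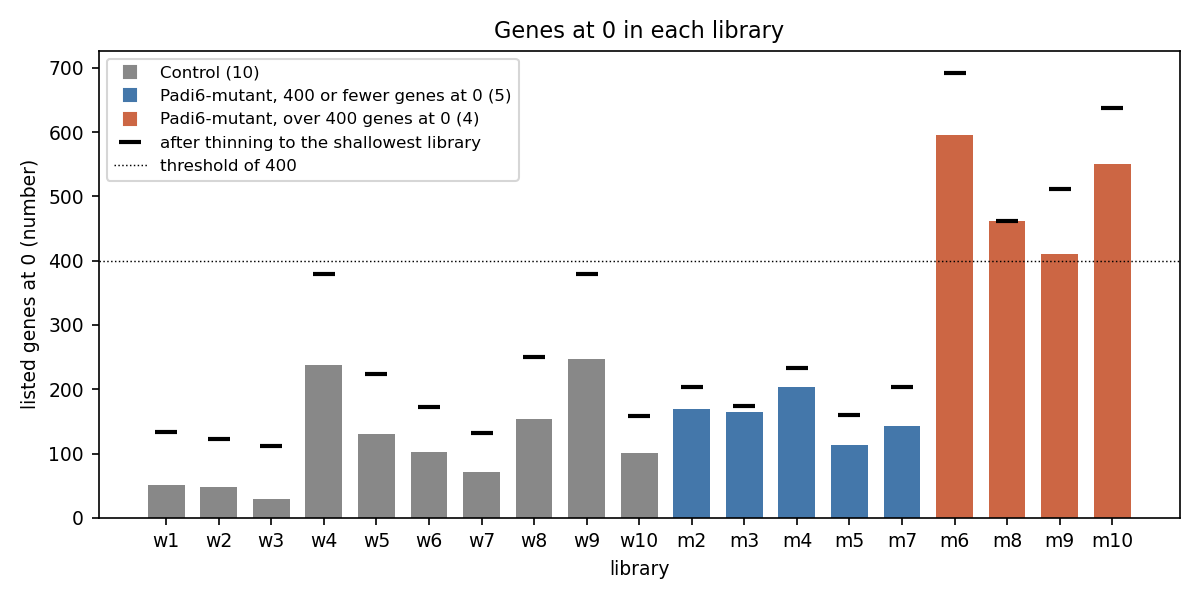
Number of the 14173 listed genes with a value of 0 (y axis) in each of the 19 libraries (x axis), with the value after thinning to 12.1 M counts as a black dash and the threshold of 400 as a dotted line. The 4 orange bars (411 to 596) lie above the highest Control bar (247) and above the 5 blue bars (113 to 203), also after thinning.

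Spearman's correlation over all genes between m6 and each of the 5 was 0.893 to 0.921, which holds the lowest value of the 4. It was 0.918 to 0.945 for m8, 0.899 to 0.942 for m9 and 0.906 to 0.919 for m10, against 0.921 to 0.965 among the 5. The 18S ribosomal RNA took 3.16 to 5.95% of scaled counts in the 4 and 3.62 to 7.35% in the 5, and mitochondrial transcripts took 7.58 to 10.6% and 4.17 to 8.37%. Markers of cumulus and granulosa cells summed to 158 to 274 per M counts in the 4 and 155 to 206 in the 5 (5 of 16 listed genes measured), and 3 of 10 leukocyte markers summed to 35.9 to 757 and 186 to 515. Most of the leukocyte sum was Lcp1, which was also high in Control (12.29 to 14.47), so the sum cannot be read as leukocyte RNA alone. Fn1 was the 1 measured stromal gene of 10, at 9.18 to 57.9 per M in the 4 and 55.4 to 89.5 in the 5. In Control, the cumulus and granulosa sum was 160 to 276 per M and Fn1 was at 82.5 to 231. These values too cannot be read as RNA of other cells alone. The part of these in the results below was not tested. Y-linked genes were high in m2, m4, m6, m9 and m10 and low in m3, m5, m7 and m8, so both kinds of embryo stood on each side of the division.

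Most genes at 0 in the 4 libraries were genes of low level, and many of them were at 0 in another Padi6-mutant library too. The genes at 0 in m6, m8, m9 and m10 had a median level of 5.68, 5.53, 5.53 and 5.68 in the other 8 Padi6-mutant libraries, while those at 0 in the 5 had medians of 4.28 to 5.06. At 0 in that library alone were 272 of 596, 167 of 462, 135 of 411 and 238 of 551 genes in the 4, against 20 to 49 genes in the 5. Any pair of the 4 shared 108 to 140 genes at 0, between 19.3 and 29.2% of either list. Over all 14173 genes, 411 to 596 were at 0 in each of the 4. Of the genes at 0 in at least 1 of the 4, 1001 were at 0 in 1 library, 341 in 2, 87 in 3 and 19 in all 4. Only 4 of those 19 were above 0 in all 5, namely the planar polarity gene Vangl2, Cachd1, the calcium-binding copine Cpne5 and the gene model Gm29123. These lay between 3.58 and 7.58 in the 5.

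Abundant transcripts were almost never at 0. Of 8217 genes with a value of at least 8 (255 scaled counts) in each of the 5, only 5 (0.0608%) were at 0 in any of the 4, and 0 were at 0 in more than 1. In the mirror count, 0 of 7747 genes at 8 or more in each of the 4 were at 0 in any of the 5. The 5 genes were Sox2, Krba1 and Nkx6-2, all at 0 in m10, and Kctd15 and Efs, both at 0 in m6. Libraries m8 and m9 had 0 such genes. The count was 2 without m10 and 3 without m6, and between 7 and 16 when a library of the 5 was left out. A count of 0 allows up to 3 counts in a library, for counting error alone. Against the lowest of the 5, Sox2 in m10 was at least 96.1-fold lower, Efs in m6 at least 85.9-fold, Kctd15 in m6 at least 76.6-fold, Nkx6-2 in m10 at least 71.6-fold and Krba1 in m10 at least 56.7-fold.

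Kctd15, a BTB-domain protein, stood at 8.91, 9.49, 9.73, 9.16 and 9.10 in the 5, and at 0, 9.65, 9.08 and 9.38 in the 4. Efs, an adaptor protein of the Cas family, stood at 9.08, 10.00, 9.15, 9.44 and 9.27 in the 5, and at 0, 9.43, 9.41 and 10.36 in the 4. For both genes m6 lay apart from the other 8 libraries, which overlapped. In Control, Kctd15 ranged from 7.89 to 9.48, whereas Efs ranged from 3.32 in w9 to 10.16, so a low Efs also occurred in a Control library. Nkx6-2, a homeobox gene, stood at 8.70, 9.56, 9.62, 9.95 and 9.32 in the 5, and at 10.65, 8.55, 8.64 and 0 in the 4. Krba1, a KRAB-domain gene, stood at 9.06, 8.48, 8.99, 9.04 and 8.37 in the 5, and at 6.21, 8.27, 8.74 and 0 in the 4. It was lowest in m10 and next lowest in m6, and its Control values ran from 8.67 to 10.64.

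Because a strict 0 misses genes that nearly vanished, genes far below all other Padi6-mutant libraries were also counted, by a rule chosen after the values were seen. It takes genes at 8 or more in the other 8 libraries and at least 3 (8-fold) below the lowest of them. There were 34 such genes in m6 (0.441% of 7702), 15 in m10 (0.197% of 7631), 4 in m8 (0.0529% of 7567), 3 in m9 (0.0396% of 7573), 1 in m5 (0.0133% of 7502) and 0 in m2, m3, m4 and m7. All but 1 of the 57, H2-Ab1 in m9, also lay below all 10 Control libraries. In the opposite direction, at least 3 above the highest of the other 8, there were 2 genes, Efna5 and the gene model Gm6426, both in m10.

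**Figure D2:**
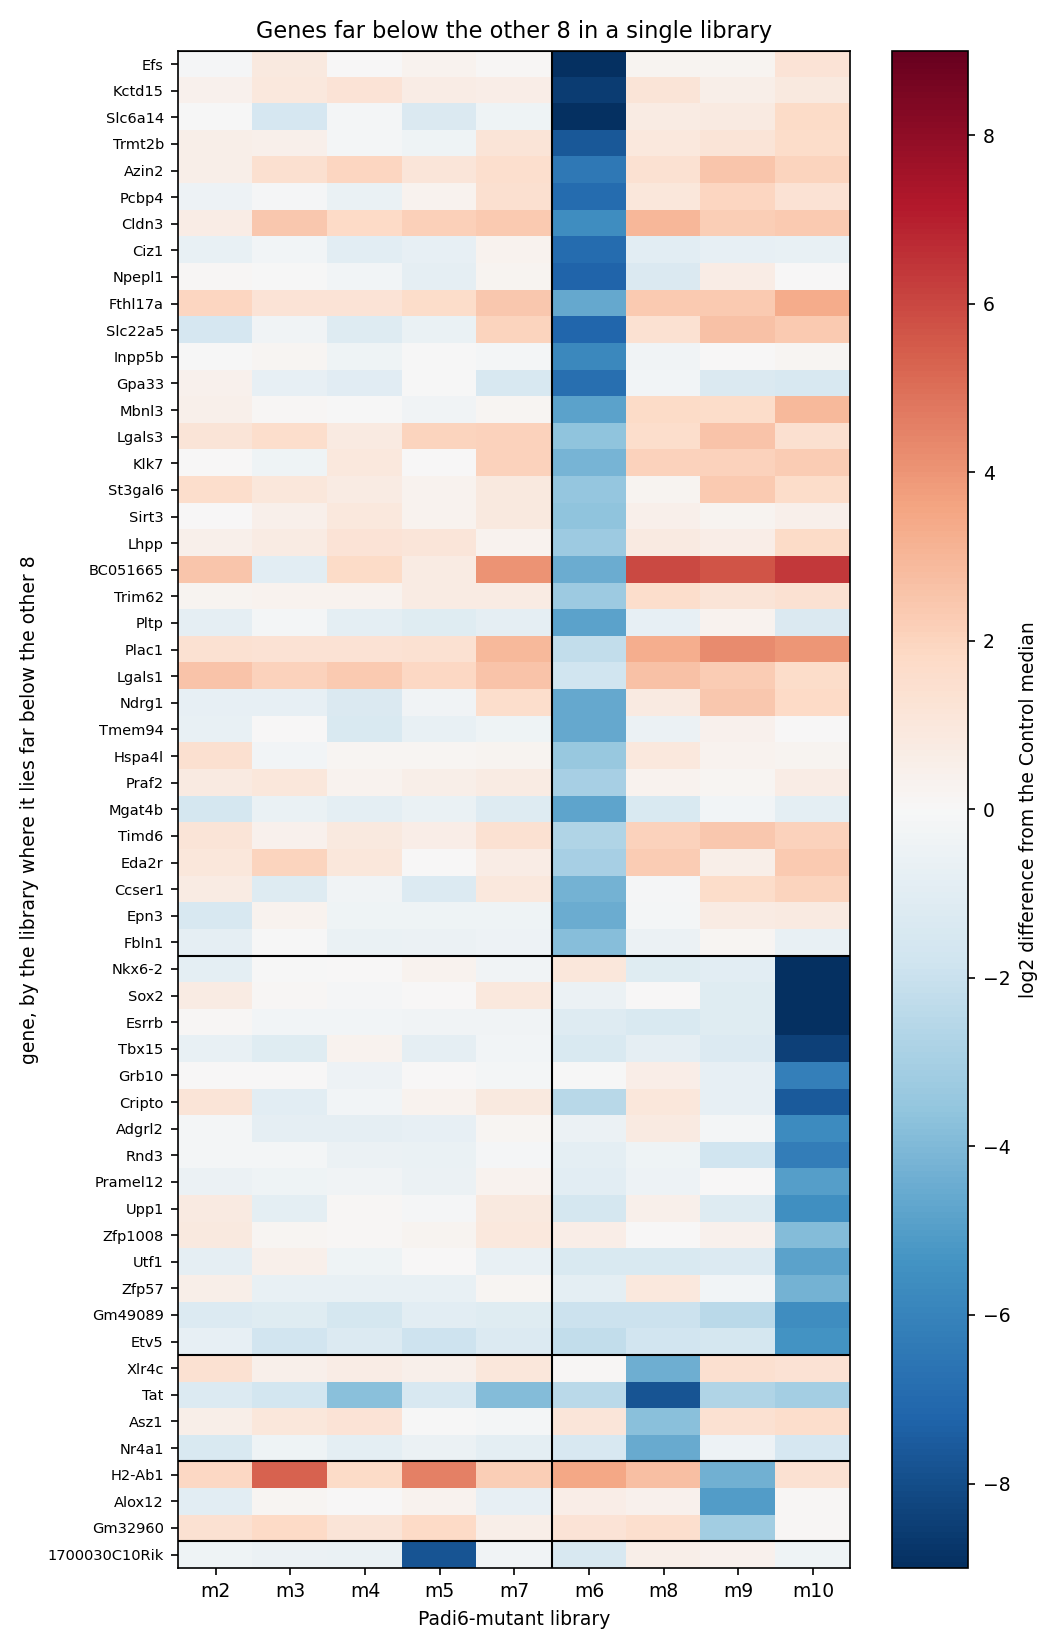
Colour shows the log2 difference of each Padi6-mutant library (x axis) from the Control median for the 57 genes far below the other 8 in 1 library (y axis, grouped from top to bottom by m6, m10, m8, m9 and m5). Colours end at 9 in each direction, and the blue blocks each fill 1 column, 34 genes in m6 and 15 in m10.

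In m10, transcripts of the inner cell mass and its descendants were low while those of the trophectoderm were not. Sox2, a transcription factor of the epiblast, stood at 10.02, 9.34, 9.12, 9.29 and 10.17 in the 5, at 8.70, 9.29 and 8.15 in m6, m8 and m9, and at 0 in m10. Its lowest, median and highest Control values were 8.04, 9.25 and 9.81. The other 8 libraries all lay above the lowest Control library, and the mean difference of the 4 from the 5 (-3.05, SE 2.20) rests on m10.

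Esrrb, an orphan nuclear receptor of the pluripotency network, stood at 10.82, 10.46, 10.51, 10.38 and 10.40 in the 5, and at 9.55, 9.35, 9.63 and 1.58 in the 4. Pecam1, an adhesion protein of the inner cell mass, stood at 10.54, 10.32, 10.19, 10.13 and 9.97 in the 5, and at 7.81, 9.69, 9.73 and 3.70 in the 4. For both genes all of the 4 were below all of the 5 and below the lowest Control library (9.78 for Esrrb and 10.02 for Pecam1), with m10 far below the rest. In Pecam1, m7 also lay just below Control. Prdm14, a repressor that guards pluripotency, was at 1.58 in m10 and between 6.63 and 9.67 in the other 8. Gdf3, a TGF-beta family ligand, was at 6.82 in m10, and Upp1, uridine phosphorylase, at 7.38, against 8.58 to 10.90 and 11.29 to 13.73 in the other 8.

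Not all pluripotency factors were below Control in m10. Nanog, the homeobox factor of the epiblast, was at 13.06 in m10 within a Control range of 12.88 to 13.75. Pou5f1, which encodes OCT4, was at 12.74 in m10, below the Control range of 13.60 to 15.35, but m7 and m9 were lower still at 12.58 and 12.02. Zfp42 was at 13.29 and Klf5 at 14.95, both inside the Control range. Of the 21 listed genes of the inner cell mass and pluripotency, 16 lay below all Control libraries in m10, where 16.4% of all genes did, and the median difference from the Control median was -2.13.

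The 15 genes far below the other 8 in m10 include Sox2, Esrrb, Utf1 and Upp1 of that list. Cripto, the co-receptor of Nodal, was at 4.58 in m10 and 9.62 to 13.27 in the other 8. That list names it by its older symbol, Tdgf1, which was not matched, so Cripto is not among the genes counted. Zfp57, a zinc finger protein that guards imprints, was at 6.74 and 10.07 to 11.89. Grb10, an imprinted adaptor of growth factor receptors, was at 3.17 and 8.55 to 9.87. Tbx15, a T-box factor, was at 1.58 and 8.58 to 10.31, and Rnd3, a small GTPase, at 6.32 and 10.77 to 12.47. The remaining ones were Nkx6-2, Adgrl2, Pramel12, Zfp1008, Gm49089 and Etv5.

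Genes of FGF and ERK signalling were also low in m10. Fgf4, the ligand made by the epiblast, stood at 9.06, 7.16, 7.51, 7.53 and 8.43 in the 5, and at 6.63, 7.12, 7.48 and 5.09 in the 4, so the groups overlapped and m10 was lowest. The receptor Fgfr1 was at 9.56 in m10 and at 10.20 to 11.78 in the other 8. Among the targets and feedback inhibitors of the pathway, Etv5 was at 6.02 in m10 against 9.20 to 10.70 in the other 8, Dusp6 at 7.80 against 10.29 to 11.98, and Spry4 and Spred1 were at 0. Of 19 listed genes of the pathway, 13 lay below all Control libraries in m10, where 16.4% of all genes did. The count was 5 in m6, 3 in m8, 5 in m9 and 1 to 6 in the 5. The same share over all genes was 19.9% in m6, 14.8% in m8, 15.6% in m9 and 9.09 to 13.1% in the 5. The list median in m10 was -1.16.

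Trophectoderm genes in m10 were at or above Control levels. Plac1, a placental membrane protein, was at 12.32 in m10, Id2, an inhibitor of basic helix-loop-helix factors, at 15.75, and Eomes, a T-box factor of the trophoblast, at 13.01. The highest Control values of these genes were 9.12, 14.43 and 12.08. Of 25 listed trophectoderm genes, 9 lay above all Control libraries in m10, where 14.7% of all genes did, and 0 lay below. The list median was 0.72. Among 17 p53 targets, 8 also lay above all Control libraries in m10, against 2 to 4 in each of the other 8.

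Primitive endoderm genes were low in more than 1 of the 4 libraries, and not in the same combination. Pdgfra, the receptor that marks this lineage, stood at 11.46, 10.50, 11.18, 10.59 and 11.40 in the 5, and at 9.27, 10.89, 7.79 and 2.32 in the 4. Its Control range was 10.47 to 12.69 with a median of 12.17, so m6, m9 and m10 lay below all Control libraries and m8 did not. Gata4, a transcription factor of this lineage, stood at 9.59, 4.64, 6.61, 5.52 and 9.96 in the 5, and at 6.75, 7.31, 0 and 0 in the 4. The groups overlapped for Pdgfra and Gata4, and m9 and m10 were the lowest for both.

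Sox17, a further factor of the lineage, stood at 10.20, 2.00, 9.52, 8.66 and 10.39 in the 5, and at 1.58, 7.51, 2.00 and 4.81 in the 4. The library m3, with 164 genes at 0, was therefore as low in Sox17 as m9, and Control w9 was at 4.09 for Sox17 and 3.00 for Gata4. Hnf4a, a nuclear receptor of the later visceral endoderm, stood at 6.27, 7.51, 7.01, 7.62 and 7.55 in the 5, and at 0, 5.88, 3.70 and 1.58 in the 4. For Hnf4a the groups did not overlap, and the mean difference was -4.40 (SE 1.30). Gata6, which acts upstream in this lineage, was at 13.06 to 13.26 in the 4 and 12.79 to 13.32 in the 5.

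Among the matrix genes of the primitive endoderm list, Col4a1, a collagen chain, stood at 10.85, 11.02, 10.38, 10.63 and 10.46 in the 5, and at 10.19, 9.77, 9.31 and 7.48 in the 4, without overlap. Sparc, a matrix protein, was at 7.80, 12.10, 9.01 and 8.75 in the 4 and 10.30 to 12.09 in the 5. Serpinh1, a collagen chaperone, was at 8.56, 10.03, 8.04 and 7.89 in the 4 and 9.92 to 11.31 in the 5. For both, m6, m9 and m10 lay below all of the 5, and m8 lay among or above them. Of 20 listed genes of primitive endoderm, 11 in m9 and 10 in m10 lay below all Control libraries, with a median of -2.25 in each. The count was 8 in m6 (median -1.48), 3 in m8 (-1.02) and 1 to 4 in the 5 (-0.85 to -0.33). The same share over all genes was 15.6% in m9, 19.9% in m6, 14.8% in m8 and 13.1, 13.0, 11.4, 9.09 and 10.9% in the 5. Above all Control libraries lay 16.4, 16.2, 14.7, 13.7 and 14.7% of all genes in the 5.

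**Figure D3:**
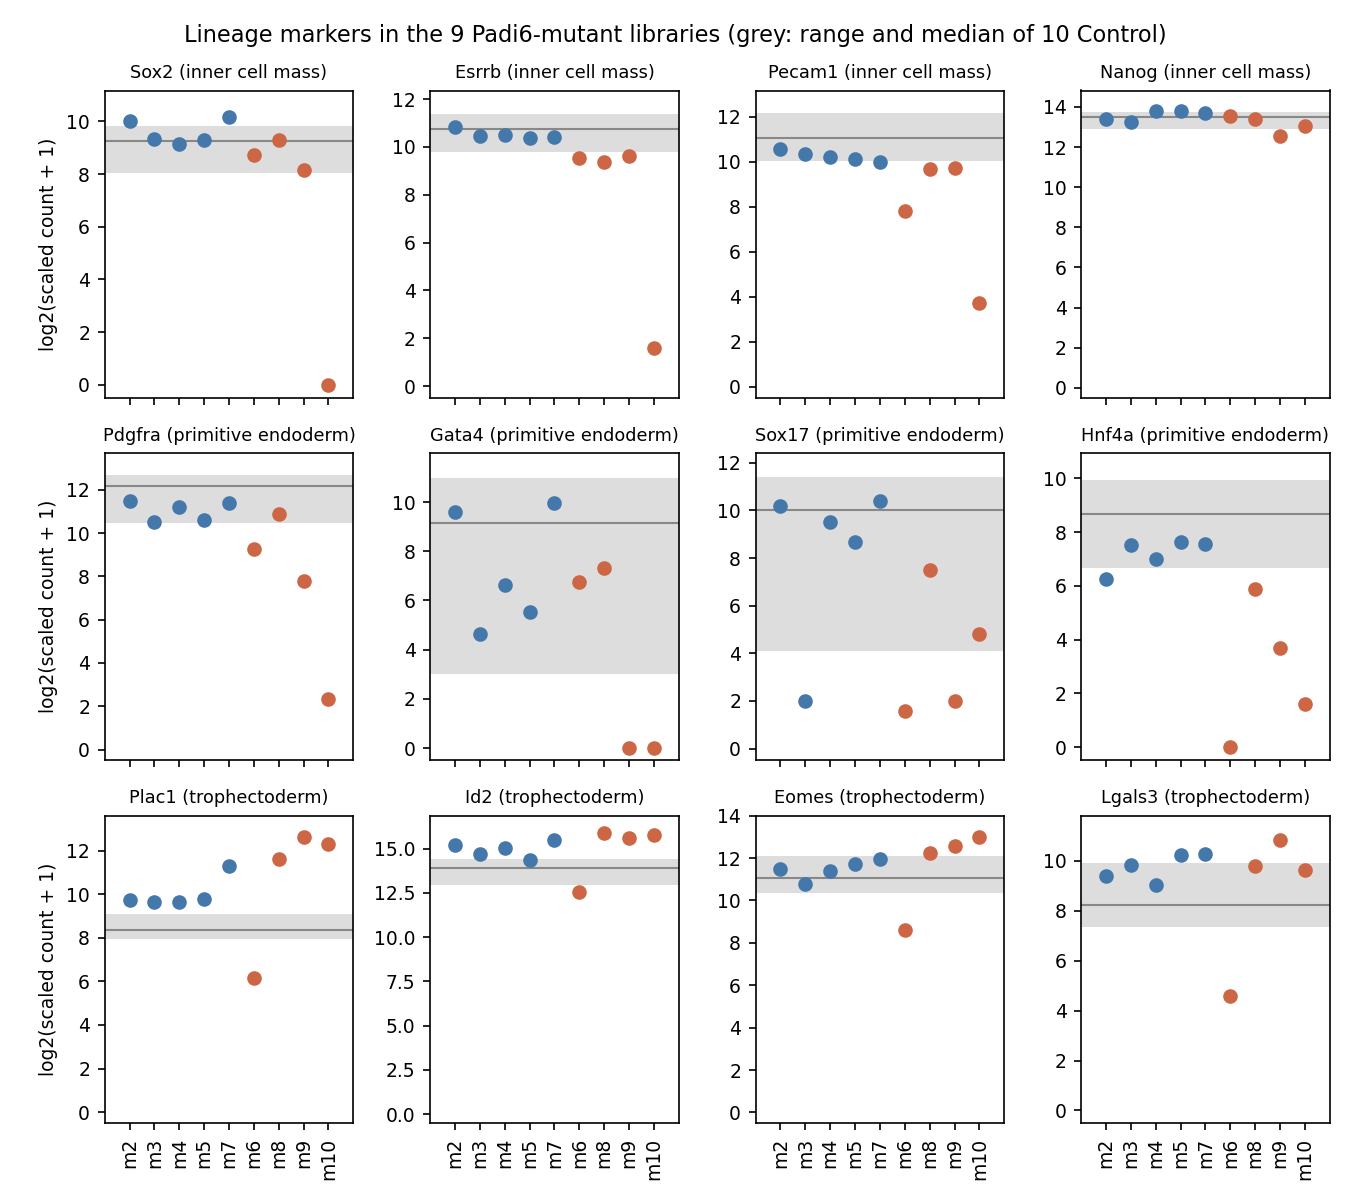
Level of 12 lineage markers, log2(scaled count + 1) on the y axis, in the 5 Padi6-mutant libraries with 400 or fewer genes at 0 (blue) and the 4 with over 400 (orange), with the range of the 10 Control libraries as a grey band and their median as a line. Sox2 and Esrrb are at 0 and 1.58 in m10 alone, Plac1, Id2, Eomes and Lgals3 are lowest in m6, and the primitive endoderm genes are low in differing libraries.

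In m9 the inner cell mass list had a median of -1.10, with 12 of 21 genes below all Control libraries, where 15.6% of all genes were. No member was close to 0. Sox2 was at 8.15, and Nanog at 12.56 was the only Padi6-mutant value below the Control range of that gene. Cited1, a transcriptional coactivator on the primitive endoderm list, was at 0 in m9 and between 6.82 and 10.94 in the other 8. On the trophectoderm list, 11 of 25 trophectoderm genes lay above all Control libraries, where 15.4% of all genes did, with a list median of 0.46. The 3 genes far below the other 8 in m9 were H2-Ab1, a chain of the MHC class II molecule (2.32 against 8.02 to 12.01), Alox12, a lipoxygenase (4.46 against 8.53 to 10.07), and the gene model Gm32960. Control libraries ranged down to 1.00 for H2-Ab1.

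In m6 many trophectoderm genes were low, with genes of other lists. Plac1 stood at 9.74, 9.64, 9.67, 9.77 and 11.31 in the 5, and at 6.17, 11.63, 12.62 and 12.32 in the 4. Id2 stood at 15.18, 14.71, 15.05, 14.34 and 15.51 in the 5, and at 12.54, 15.88, 15.62 and 15.75 in the 4. For both genes m6 was the lowest of all 19 libraries while m8, m9 and m10 were the highest, so that the mean differences of the 4 from the 5 (0.66, SE 1.55, and -0.01, SE 0.83) show neither.

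Eomes was at 8.61 in m6 and 10.78 to 13.01 in the other 8, and Gata2, a further factor of the trophoblast, at 8.38 and 10.81 to 12.01. Lgals3, a galectin, was at 4.58 and 9.02 to 10.81. The keratins Krt8 and Krt18, which build the filaments of this epithelium, were at 15.58 and 14.09 in m6, below the lowest Control values of 16.58 and 15.92. Ppl, a protein of desmosomal plaques, was at 0 in m6 and 6.66 to 8.56 in the other 8. Cdx2 and Gata3, which specify the trophectoderm, were at 13.22 and 14.40 in m6, close to the 13.21 and 14.43 of m2, and both libraries were below the lowest Control value of Cdx2 (13.41). Of the 25 listed genes, 17 lay below all Control libraries in m6 and 0 above, where 19.9 and 21.1% of all genes did, and the list median was -1.36. Below all Control libraries were also 9 of the 25 in m2 (list median -0.35), and 0 to 3 in the other 7.

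Of the 34 genes far below the other 8 in m6, 2 (Plac1 and Lgals3) are on the trophectoderm list. Among the others, Cldn3, a claudin of tight junctions, was at 2.32 in m6 and 8.60 to 10.96 in the other 8. Slc6a14, an amino acid transporter, was at 1.58 and 9.97 to 13.23, and Slc22a5, the carnitine transporter, at 4.17 and 9.81 to 13.95. Lgals1, a galectin, was at 11.97 and 15.42 to 16.41. Ndrg1, a stress-responsive gene, was at 8.14 and 11.42 to 15.15. Of the 34 genes, 7 (20.6%) are on the X chromosome, namely Slc6a14, Trmt2b, Fthl17a, Mbnl3, Plac1, Praf2 and Eda2r, where 2.69% of the 7702 genes considered are. The median deviation of X-linked genes from the other Padi6-mutant libraries was -0.23 in m6 and ranged from -0.26 (m4) to 0.32 (m7) over the 9.

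Genes of junctions, of glycolysis and of the immediate early response were also low in m6, where 19.9% of all genes lay below all Control libraries. That share was 14.8, 15.6 and 16.4% in m8, m9 and m10, and 9.09 to 13.1% in the 5. Of 25 genes of the blastocoel pump, junctions and polarity, 16 lay below all Control libraries, against 0, 3 and 1 in m8, m9 and m10, and 10, 7, 2, 4 and 4 in the 5. Of 15 glycolysis genes, 10 lay below (median -1.75), against 6 in m2 (-1.10) and 0 to 5 in the other 7, with Pfkl, a phosphofructokinase, at 2.81 against 7.64 to 10.49 in the other 8, and Slc2a1, a glucose transporter, at 8.99. Of 9 immediate early genes, 6 lay below (median -0.98), against 4 in m9 and 0 to 3 in the others. The inner cell mass list was closer to Control in m6, with a median of -0.50 and 6 of 21 genes below.

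In m8 no lineage list median was as far from Control as the furthest ones in m6, m9 and m10. More inner cell mass genes lay below all Control libraries in m8 than in m6. Sox2, Pdgfra and Plac1 were at 9.29, 10.89 and 11.63, and the list medians were -0.41 (inner cell mass, 9 of 21 below all Control), -1.02 (primitive endoderm) and 0.19 (trophectoderm, 7 of 25 above). Over all genes, 14.8% lay below all Control libraries in m8. Mitochondrially encoded transcripts were high in m8, with 12 of 13 above all Control libraries, where 16.7% of all genes were, and a median of 2.00. That median was 1.52, 1.07 and 1.07 in m6, m9 and m10, and 0.25 to 1.17 in the 5. The 4 genes far below the other 8 were Xlr4c (5.17 against 9.70 to 10.98), the tyrosine aminotransferase Tat (4.58 against 8.49 to 11.14), Asz1, a germ cell protein of transposon silencing (5.88 against 9.46 to 11.20), and the nuclear receptor Nr4a1 (5.17 against 8.24 to 9.33).

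**Figure D4:**
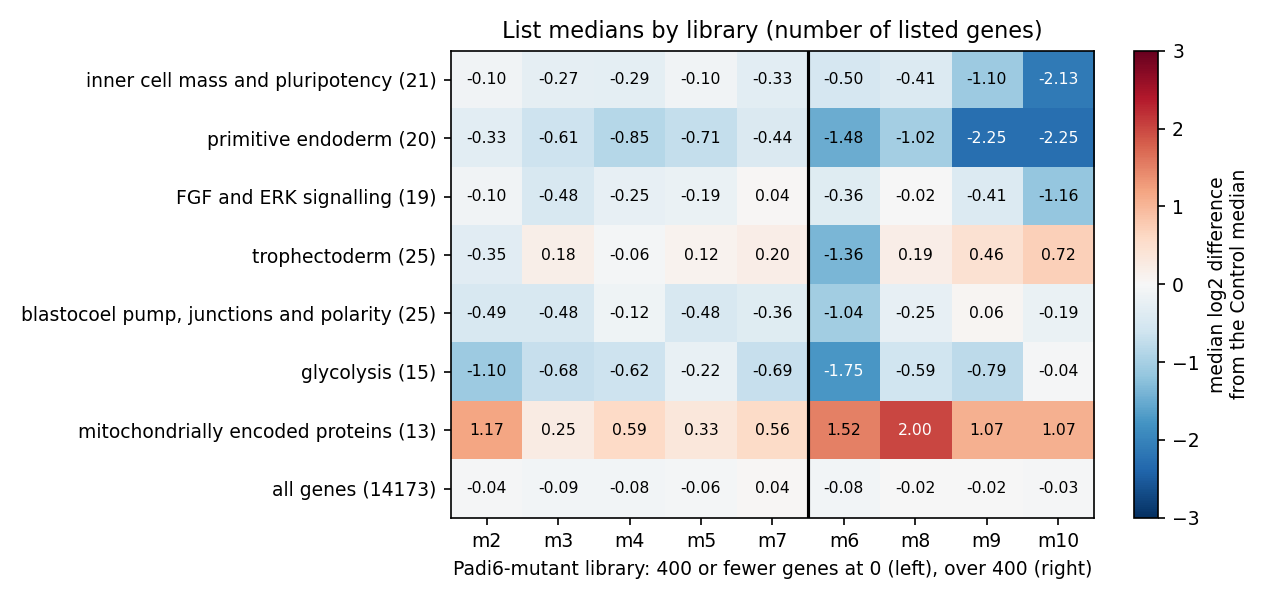
Median log2 difference of each gene list from the Control median (colour and number) in each Padi6-mutant library (x axis), with the number of listed genes in parentheses. The trophectoderm list is lowest in m6 (-1.36), the inner cell mass list in m10 (-2.13), the primitive endoderm list in m9 and m10 (-2.25), and the mitochondrially encoded list is highest in m8 (2.00).

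Library m8 also differed by chromosome. Over genes at 6 or more in all 9 libraries, each value was set against the median of the other 8 libraries and centred on the library's median. The 334 genes of chromosome 19 had a median of 0.50 in m8 (1.42-fold), with quartiles of 0.17 and 0.79. The other 18 libraries, compared within their own group, had chromosome 19 medians of -0.14 to 0.12. All other autosomes ranged from -0.20 to 0.18 over the Padi6-mutant libraries and from -0.28 to 0.24 over the Control libraries. Of the chromosome 19 genes, 129 (38.6%) were higher in m8 than in all other 8, against 8.32% on chromosomes 1 to 18 and X and 9.51% of all 9662 genes. Among the chromosome 19 genes of highest level, the ribosomal protein gene Fau was at 16.04 in m8 against at most 15.93, the respiratory chain subunit Cox8a at 15.41 against at most 15.20, and the phosphatase subunit Ppp1ca at 14.71 against at most 14.29. Of the 8 chromosome 19 genes of highest level, 4 were highest in m8 and 4 (Malat1, Eef1g, Rfk and Stip1) were not. This library is 1 embryo, and the pattern was looked for after the values were seen.

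**Figure D5:**
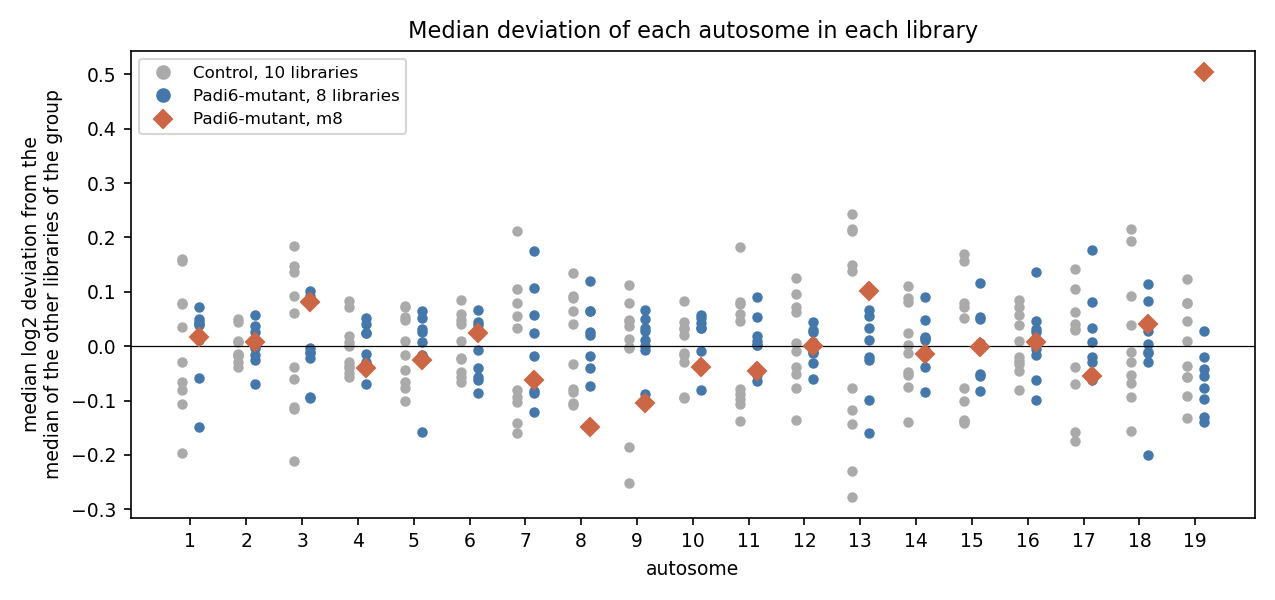
Median log2 deviation of the genes of each autosome (x axis) from the median of the other libraries of the same group (y axis), for 10 Control libraries (grey), 8 Padi6-mutant libraries (blue) and m8 (orange diamonds). Chromosome 19 in m8 lies at 0.50, and all other points lie between -0.28 and 0.24.

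All of the 4 were below all of the 5 in 192 genes (1.35%) and above in 142 (1.00%), and over the 7086 genes whose mean over the 9 libraries was above the median in 89 (1.26%) and 79 (1.11%). Without m6, so with 1 library fewer to separate, the counts were 640 and 494. The median difference over all genes was -0.10. By list, 4 of 21 inner cell mass genes (Klf2, Esrrb, Pecam1 and Utf1; list median -0.81) and 2 of 20 primitive endoderm genes (Hnf4a and Col4a1; list median -0.91) were lower without overlap, and 0 of 25 trophectoderm genes (0.14) separated in either direction. Mitochondrially encoded transcripts had a list median of 0.74 with mt-Nd4l higher without overlap, and cytosolic ribosomal proteins -0.37 with Rps4l lower, 1 of 89.

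Esrrb and Pecam1, described above, differed by -2.99 (SE 1.98) and -2.50 (SE 1.42). Their mean over the 9 libraries was below the median of all genes (9.37). Among named genes with a mean above it, Id3 was the furthest downward. Id3, an inhibitor of basic helix-loop-helix factors, stood at 11.24, 12.02, 11.76, 11.75 and 11.29 in the 5, and at 9.60, 11.18, 9.45 and 7.81 in the 4 (difference -2.10, SE 0.70). Its Control median was 9.93, so the 4 enclosed it and the 5 lay above it. Rnf130, a RING-domain protein, stood at 11.65, 11.06, 10.78, 10.59 and 10.72 in the 5, and at 10.01, 9.87, 8.74 and 7.33 in the 4 (difference -1.97, SE 0.65). Here the 4 lay below the Control range of 10.73 to 11.68, as did m5 and, by a small margin, m7.

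Klf2, a pluripotency factor, stood at 9.04, 10.62, 9.41, 9.78 and 9.54 in the 5, and at 7.89, 8.70, 8.60 and 7.58 in the 4, all 4 below the Control range of 9.05 to 10.96, as was m2. Ooep, of the subcortical maternal complex, was at 12.17, 11.71, 11.65, 11.04 and 11.01 in the 5 and 10.67, 10.49, 9.93 and 10.01 in the 4, with a Control median of 8.86. Trim28, a corepressor that acts with ZFP57, was at 12.45, 13.06, 12.75 and 12.43 in the 4 and 13.22 to 13.65 in the 5. The other large differences downward were Utf1 (-1.91), Mtmr7 (-1.65), Col4a1 (-1.48), Nrde2 (-1.30), Dpagt1 (-1.11), Nthl1 (-1.11) and Slc24a5 (-1.09).

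In the upward direction, Rac3, a small GTPase, stood at 8.33, 8.52, 9.31, 8.99 and 8.01 in the 5, and at 9.85, 10.12, 10.84 and 10.47 in the 4 (difference 1.69, SE 0.32). All 4 lay above the highest Control library (9.23), as did m4 of the 5. Bnip3, a receptor of mitophagy, was at 13.88, 13.65, 14.08 and 14.71 in the 4 and 12.85 to 13.40 in the 5, and all 4 again lay above the highest Control library (13.60). Ocln, the tight junction protein occludin, was at 10.89, 11.87, 11.90 and 11.63 in the 4 and 10.43 to 10.76 in the 5. The imprinted gene Impact (1.13), the repair gene Ercc6 (1.07), Usp6nl (0.92), the ephrin gene Efnb2 (0.87) and the kinase gene Sgk1 (0.86) were among those that followed.

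The genotype given in the labels does not depend on the zeros, so Padi6-mutant was tested against Control in limma over all 19 libraries, with Benjamini-Hochberg adjustment over all genes. Of all genes, 1697 (12.0%) fell and 2068 (14.6%) rose. Padi6 itself, whose message is not removed by an amino acid change, ranged from 2.00 (m7) to 9.27 (m6), and its level did not check the genotype. On the lists, 8 of 20 primitive endoderm genes fell and 0 rose, 7 of 21 inner cell mass genes fell and 1 rose, and 4 of 25 trophectoderm genes fell and 6 rose.

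Marker results of the genotype are given with and without the 4. Fewer libraries enter without the 4, and the change between the settings was not tested. Pdgfra fell by 2.51 (SE 0.83, adjusted p = 0.0282), and by 0.97 without the 4 (adjusted p = 0.0374), but stood at -2.29 without m9 alone (adjusted p = 0.0512). Hnf4a stood at -3.35. Sox17 fell by 3.37 (adjusted p = 0.0393), and stood at -1.52 without them (adjusted p = 0.402). Sox2 was at -0.93 (adjusted p = 0.459), at 0.42 without the 4 (adjusted p = 0.340) and at 0.10 without m10 alone. Klf2 stood at -1.09. Hnf4a and Klf2 were named for lying lower in the 4, so neither a p-value nor a value without the 4 is given for them.

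Plac1, Id2 and Fabp3 of the trophectoderm list rose with the genotype in the deposited values, with and without the 4. Plac1 rose by 1.85 (SE 0.56, adjusted p = 0.0175), and by 1.56 without the 4 (adjusted p = 0.00134). Id2 rose by 1.15 (adjusted p = 0.0128), and by 1.16 without the 4 (adjusted p = 0.00387). After each library was corrected for transcript length and GC, the adjusted p was 0.239 for Plac1 (1.02), 0.221 for Id2 (0.58) and 0.0532 for Pdgfra (-2.33). Fabp3, a fatty acid binding protein of the trophectoderm, rose by 1.91 (adjusted p = 0.000523), and by 1.82 without them (adjusted p = 0.00350). All 5 libraries with 400 or fewer genes at 0 lay above the highest Control library in Plac1 (9.12), whereas m6 lay below the lowest (7.94). Eomes was at 0.43 (adjusted p = 0.439). Without m6, its lowest Padi6-mutant library, it stood at 0.80, and since its own values single out that library, no p-value is given.

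Some genes were named because the 4 and the 5 did not overlap. Over all libraries, Ooep differed from Control by 1.93, Rac3 by 1.09, Bnip3 by 0.69, Id3 by 0.47 and Impact by -0.47. The values of the 4 chose these genes and also enter this comparison, so no p-value is given for them. Whether the genotype difference is unlike in the 4 and the 5 was not tested, since the zeros chose them.

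The 10 Control libraries, which the division did not use, were asked which genes go with the number of genes at 0. That number was taken before thinning, so depth can enter the slopes below, and its part was not tested. In limma, with the log2 of that number as the covariate, 0 genes passed an adjusted p of 0.05, while at an unadjusted p of 0.05 there were 1844 lower (13.0%) and 1259 higher (8.88%) genes. Without w4 the adjusted count was 78 lower and 72 higher, and without w6 it was 376 and 83. At the unadjusted p, 8 of 20 primitive endoderm genes were lower and 0 higher, with a median slope of -0.37 per doubling of the genes at 0, against 0.01 over all genes. For Sox17 the slope was -1.31 (SE 0.45, limma unadjusted p = 0.0106, adjusted p = 0.129). The same count was 4 of 21 lower and 1 higher for the inner cell mass list, 6 and 4 of 25 for the trophectoderm list, and 8 and 0 of 15 for glycolysis, where Pfkl had a slope of -1.20 (SE 0.27, adjusted p = 0.0653). Of 89 cytosolic ribosomal proteins, 51 were higher and 0 lower (median slope 0.48), although the 4 were lower than the 5 in this list (median -0.37). Of 13 mitochondrially encoded transcripts, 6 were higher (median slope 0.44). Sox2 and Esrrb had slopes of 0.32 (SE 0.18) and -0.02 (SE 0.16). Fabp3, Id2 and Plac1, which rose with the genotype, had slopes of 0.69 (SE 0.19), 0.30 (SE 0.14) and 0.03 (SE 0.19). Across all genes, the difference of the 4 from the 5 and the Control slope had a Spearman's correlation of 0.19, a description over genes that share libraries.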

How the data were processed

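Values are the deposited log2 values of 14173 genes in 19 libraries. Undoing the log2 gave whole numbers to within 1.96e-07, with the same upper quartile (11.18) in each library, so the authors' values were read as log2(upper-quartile scaled count + 1). Per the labels' protocols, mRNA was captured on oligo-dT beads (G&T protocol), copied by template switching, amplified by PCR for 17 cycles and made into Nextera XT libraries. The labels speak of 20 pooled libraries, and 19 were analysed here. Reads were handled with Trim Galore 0.4.4 and HISAT2 2.1.0, and GRCm39 is named, per the submitters' processing notes. The counting tool and annotation are not given in the sources used here. Every listed gene is above 0 in at least 9 libraries, and zeros were counted over these genes alone.

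Original counts were recovered from the step between low values in 13 of 19 libraries. Thinning took 1 scaled count as 1 count where the step was unknown. Intervals and floors cover counting error alone. Padi6-mutant and Control were compared with limma 3.58.1 (trend, two-sided, Benjamini-Hochberg, threshold 0.05) in R 4.3.3, tested on simulated data. GENCODE (mouse release 21, an older build), and after it RefSeq by current or older symbol, gave chromosomes for 97.1% of genes. Lengths with GC came from GENCODE for 94.2%.

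The members, gene lists, tests and alternatives were chosen with earlier results of these data known. Named genes were Sox2, Pdgfra, Plac1, Id2, Nanog, Pou5f1, Gata6, Gata4, Sox17, Cdx2, Gata3, Eomes and Padi6, abundant genes at 0, the 10 largest differences in each direction without overlap among named genes above the median level, and up to 4 genes of each list without overlap (otherwise up to 2 of the highest level). Genes from the single-library and chromosome 19 rules, and further list members described by library, were chosen after their values were seen. Some genes that this rule names are not reported here.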

Additional observations from a re-analysis of the deposited data

Results flagged for a closer look

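Of 163 groups looked at (each named gene in the 9 Padi6-mutant and in the 10 Control libraries, the number of genes at 0, and chromosome 19), 24 had a single library whose gap to the nearest other was large for the range of its group. Chance gives such a gap in about 1 in 20 groups of samples, but many of these genes were named because a library was at 0 or because the 4 lay apart, so the number found is not to be set against that rate. There were 19 among Padi6-mutant libraries and 5 among Control libraries, and 10 fell on m10 and 6 on m6.

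In m10 the lowest values were those of Sox2 (0), Krba1 (0), Nkx6-2 (0), Esrrb (1.58), Pdgfra (2.32), Pecam1 (3.70), Utf1 (6.46), Col4a1 (7.48) and Gab1 (9.48), an adaptor of receptor kinases, and the highest was that of Serpine2 (13.03), a protease inhibitor. In m6 the lowest values were those of Kctd15 (0), Efs (0), Plac1 (6.17), Klf6 (9.97), Lcp1 (10.17) and Id2 (12.54). In m8 chromosome 19 had the highest median deviation (0.50). Among the libraries with 400 or fewer genes at 0, Tm7sf2, a sterol reductase gene, was lowest in m4 (4.32) and Mob1a, of the Hippo pathway, in m3 (11.22).

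In Control, w9 had the lowest Gata4 (3.00), Sox17 (4.09) and Efs (3.32). Usp6nl was lowest in w5 (8.87) and Cd74 in w8 (3.81).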

How the results depend on the processing

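Alternatives for chromosome 19 and for the genes far below in single libraries were chosen after seeing the data. Counts of genes without overlap between the 4 and the 5 were 96 lower and 78 higher among genes whose mean over all 19 libraries was above the median, where fewer genes were compared, and 249 to 640 lower and 169 to 494 higher when a library was left out (both highest without m6), where fewer libraries had to separate. Abundant genes at 0 numbered 50 with a minimum value of 7, 2 with 9, 10 where a value of at most 2 counted, 8 after thinning, and 2 to 16 when a library was left out (16 without m7 and 12 without m2).

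Padi6-mutant against Control gave 1242 higher genes among those above the median, 941 lower without the 4, 938 lower and 1027 higher without the 5, and 1432 to 1671 lower and 1895 to 2048 higher when a Padi6-mutant library was left out. Sox2 ranged from -1.17 to 0.10 when a library was left out, with the opposite sign only without m10, and stood at 0.42 without the 4. The replicate numbers in the labels did not pair the libraries (correlations of -0.07 to 0.15 over 9 pairs, 1 above 0.1, and 1 pair that was best with its own number), and the replicate block gave 1000 lower and 1528 higher genes.

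Within Control, the adjusted count was 88 lower and 8 higher with a pseudocount of 16, 282 and 62 among genes above the median, 258 and 22 with the number of genes at 0 on the linear scale, and 0 to 376 lower and 0 to 83 higher when a library was left out. The cause of these shifts was not tested. Genes far below the other 8 numbered 87 in m6, 29 in m10, 15 in m8 and 12 in m9 at a distance of at least 2, and 15, 9, 1 and 2 at a distance of at least 4. Chromosome 19 in m8 stayed between 0.50 and 0.55 over 6 alternatives. Values near 0 rest on few counts, and the number of original counts was not known for 6 libraries.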
